A study of Mus musculus with 2 samples.

Results

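The genes described here are Mir126a, Mir126b, Mir221 and Mir222, which encode the miRNAs miR-126, miR-221 and miR-222. They were found by matching the Ensembl gene IDs of the count tables to these symbols in GENCODE M21, which gave 4 of the 2202 measured miRNA genes. Total RNA was taken from the hearts of female mice of the strain B6CASTF1/J, the first-generation hybrid of C57BL/6J and CAST/EiJ, at an age of 36 days. The descriptions of both records read PND36 months, taken here as postnatal day 36. The 2 libraries form 1 group, heart, and are labelled biological replicate 1 and biological replicate 2, both female. Both records carry the same donor code, and nothing else in the labels says how the animals relate. No treatment, mutation or control group was part of the design, so the data give levels and the difference between 2 hearts. Each p-value below compares 2 libraries beyond counting error and does not compare conditions.

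A miRNA is cut from the stem of a hairpin transcript and is loaded into an Argonaute protein, where its seed, bases 2 to 8, pairs with target mRNAs. miR-126 is a miRNA of endothelial cells, the lining of blood vessels, and is cut from an intron of Egfl7, which encodes a secreted protein of the vessel wall. In mice it is known to sustain signalling by vascular endothelial growth factor through its targets Spred1 and Pik3r2. miR-221 and miR-222 are cut from neighbouring hairpins and share a seed. They are known to repress the receptor Kit and the cell cycle inhibitor Cdkn1b, in endothelial cells and in others, smooth muscle among them.

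Mir126a (ENSMUSG00000065540.1) and Mir126b (ENSMUSG00000105799.1) lie on opposite strands of 1 locus, and the sequences show how completely they overlap. Mir126a occupies chr2:26591357-26591429 on the plus strand of mm10 and Mir126b chr2:26591363-26591420 on the minus strand. The 58 bases of the Mir126b hairpin are the exact reverse complement of bases 7 to 64 of the Mir126a hairpin, which leaves 6 bases of Mir126a free at its 5′ end and 9 at its 3′ end. Of the Egfl7 transcripts that span the locus, 8 carry it in an intron and 1, a retained-intron transcript, in an exon. In the Egfl7 transcripts with 10 exons it is intron 7. The hairpins are printed 5′ to 3′ from RefSeq (GRCm38.p6, the assembly of mm10), with the annotated mature miRNAs of that table in capitals.
Mir126a hairpin: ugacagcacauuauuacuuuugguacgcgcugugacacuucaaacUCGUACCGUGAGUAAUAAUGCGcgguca
Mir126b hairpin: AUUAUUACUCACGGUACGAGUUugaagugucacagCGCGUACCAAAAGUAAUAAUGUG

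Mature miRNAs of the table are printed next with the seed in capitals, to show which of them share one. miR-221-5p is left out. Its seed stood in no other mature sequence, and the same held for miR-126a-3p, miR-126b-5p and miR-126b-3p, which are printed. For Mir126a and Mir222 the table marks only miR-126a-3p and miR-222-3p. miR-221-3p and miR-222-3p have the same first 8 bases and the seed GCUACAU. They agree at 11 of 23 positions without gaps. With gaps allowed, they were identical in 79.2% of the aligned columns.
miR-126a-3p: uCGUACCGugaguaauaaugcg
miR-126b-5p: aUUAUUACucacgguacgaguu
miR-126b-3p: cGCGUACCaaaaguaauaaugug
miR-221-3p: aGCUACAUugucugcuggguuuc
miR-222-3p: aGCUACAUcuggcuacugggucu
Mature sequences of the table numbered 1738. The seed of miR-126a-3p, CGUACCG, stood in no other of them. GCUACAU stood in miR-221-3p, miR-222-3p and miR-1928, whose gene Mir1928 had 0 counts in both libraries, where 3 counts would be 1.45 CPM (counts per 1000000 assigned reads) in replicate 1 and 1.70 CPM in replicate 2. miR-126a-3p and miR-126b-5p come from opposite strands of the same bases, with 19 positions in common, and their seeds differ.

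Mir221 (ENSMUSG00000065422.1, chrX:19146294-19146388) and Mir222 (ENSMUSG00000065471.1, chrX:19146893-19146971) stand 504 bases apart on the minus strand of mm10, with no annotated gene over either of them. No other measured miRNA gene lay within 10000 bases of any of the 4 genes. Over the whole hairpin, Mir221 and Mir222 were identical in 62.5% of the columns of a global alignment. The minimum free energy that RNAfold gave was -42.8 kcal/mol for Mir221, -40.7 for Mir222, -31.2 for Mir126a and -19.3 for Mir126b. Per base, Mir126b had the weakest fold at -0.333 kcal/mol, beside -0.427 for Mir126a, which reads the same locus from the other strand. No run of 18 bases of a member's hairpin recurred on the same strand in another of the 2202 hairpins, and each mature sequence above was found in no annotated transcript outside its own gene and, for miR-126a-3p, Egfl7. The genome itself was not searched.

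The 2 libraries held 5606848 reads in replicate 1 and 4990632 in replicate 2, of which 2074961 and 1766135 were assigned to miRNA genes on the gene's strand. Levels below are CPM, counts per 1000000 of those assigned reads. Counts are per gene, so reads from either side of a hairpin's stem cannot be told apart. A level is thus that of the gene and not of a single mature miRNA. A read was worth 0.482 CPM in replicate 1 and 0.566 CPM in replicate 2. Reads that mapped to several places, 42.0% in replicate 1 and 39.8% in replicate 2, were counted at no gene. Each count has a 95% Clopper-Pearson (exact) interval. PCR reads that carry no molecular identifier need not be separate molecules, and both intervals and floors hold for counting error alone.

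By assigned reads, which leave out those that mapped to several places, Mir126a was among the most abundant miRNA genes of both hearts. Mir221 was well below it, Mir222 lower again, and Mir126b was not detectable above the floor of 3 counts. Mir126a had 201306 counts in replicate 1 and 116231 in replicate 2, which is 97017 CPM and 65811 CPM. Its share of all assigned reads was 9.70% (9.66 to 9.74) in replicate 1 and 6.58% (6.54 to 6.62) in replicate 2, a mean of 8.14% ± 2.21 (SD, n = 2). Among the 4 genes it made up 97.9% of the counts in replicate 1 and 98.4% in replicate 2. Replicate 1 was thus the higher library for Mir126a, by 1.47 times on the CPM scale.

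Mir221 had 4114 counts in replicate 1 and 1793 in replicate 2, which is 1983 CPM and 1015 CPM, with a mean of 1499 ± 684 CPM (SD, n = 2). Mir222 had 122 counts in replicate 1 and 107 in replicate 2, which is 58.8 CPM and 60.6 CPM, with a mean of 59.7 ± 1.26 CPM. Replicate 1 was the higher library for Mir221, while the levels of Mir222 lay inside each other's counting intervals (48.8 to 70.2 CPM in replicate 1 and 49.7 to 73.2 CPM in replicate 2). Mir126b had 1 read in each library, with an upper bound of 2.69 CPM in replicate 1 and 3.15 CPM in replicate 2, so it was below the floor and no ratio is given for it.

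**Figure D1:**
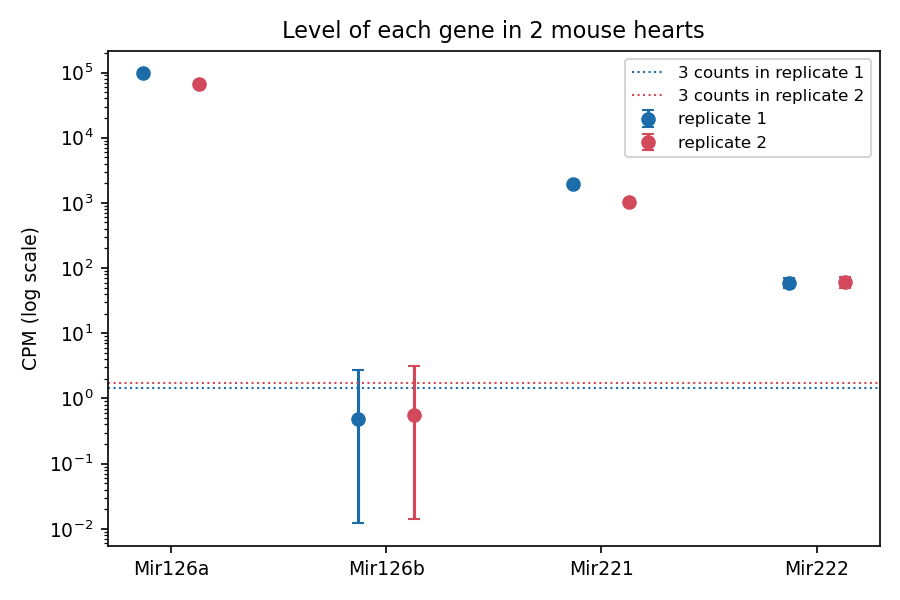
CPM of each gene on a log scale, with replicate 1 and replicate 2 as separate points and exact counting intervals as bars (hidden by the point where they are narrow). Mir126a stands at 97017 and 65811 CPM, Mir221 at 1983 and 1015 CPM and Mir222 at 58.8 and 60.6 CPM, while Mir126b, with 1 read in each library, lies under the dotted lines that mark 3 counts.

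In the order of all 2202 genes by mean CPM, Mir126a stood in place 3, after Mir378a with 146001 ± 28746 CPM and Mirlet7i with 84244 ± 14677 CPM (SD, n = 2). Reads that mapped to several places, 42.0% in replicate 1 and 39.8% in replicate 2, are not part of this order. Genes that share a mature miRNA with another copy, such as Mir1a-2 at 47.8 ± 14.8 CPM, may thus stand too low in it. Mir126a, at 81414 ± 22066 CPM, was not separated from Mirlet7i: Mir126a was place 2 in replicate 1 and place 3 in replicate 2, and Mirlet7i held the other of these places in each. Mir378a, in an intron of Ppargc1b, was above it in both libraries. The next genes below were Mirlet7g with 61610 ± 17205 CPM and Mir23b with 54688 ± 2933 CPM, and both were under Mir126a in each heart.

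Mir221 held place 48 in replicate 1 and place 66 in replicate 2, and place 56 by its mean. Its neighbours in level were Mir361 at 1562 ± 3.11 CPM and Mir98 at 1537 ± 696 CPM above it, and Mir145a at 1497 ± 521 CPM and Mir150 at 1463 ± 696 CPM below it. None of these 4 means differed from that of Mir221 by more than the spread of Mir221 between the hearts. Mir145a, a miRNA of smooth muscle, and Mir150, a miRNA of lymphocytes, were higher in replicate 2, so their order with Mir221 turned round between the libraries.

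Mir222 held place 161 in replicate 1 and place 167 in replicate 2. Mir500 (62.0 ± 22.8 CPM), Mir467c (60.6 ± 3.21 CPM), Mir223 (58.7 ± 33.9 CPM) and Mir345 (56.6 ± 20.8 CPM) lay around it. None of these 4 means differed from that of Mir222 by more than the neighbour's own spread between the hearts. The spread of Mir222 itself, 1.26 CPM, was narrower than that of any of the 4.

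Sense counts of Mir221 were 33.7 times those of Mir222 in replicate 1 (interval 28.2 to 40.7) and 16.8 times in replicate 2 (13.8 to 20.6). The 2 genes come from neighbouring hairpins, and their proportion was thus not the same in the hearts. Replicate 1 had 2.01 times the proportion of replicate 2 (exact conditional interval 1.53 to 2.65), a value that does not depend on how the libraries are scaled. Counts of Mir126a were 48.9 times those of Mir221 in replicate 1 (47.4 to 50.5) and 64.8 times in replicate 2 (61.9 to 68.0), so that replicate 1 had 0.755 times the proportion of replicate 2 (0.713 to 0.798). For Mir126a over Mir222 the proportion in replicate 1 was 1.52 times that in replicate 2 (1.16 to 1.99). Each of these 3 intervals leaves out 1, for counting error alone.

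**Figure D2:**
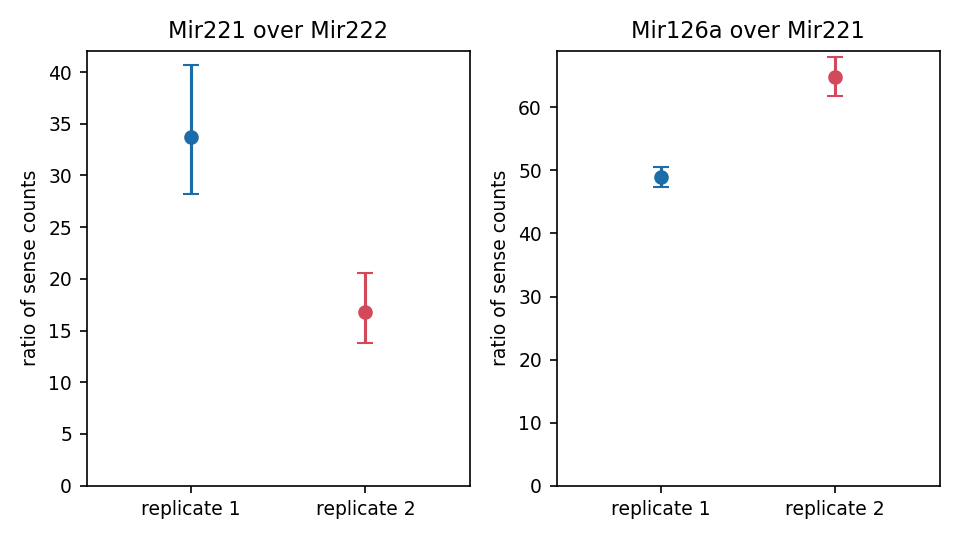
Ratio of sense counts in each library, Mir221 over Mir222 on the left and Mir126a over Mir221 on the right, with exact 95% counting intervals as bars. Mir221 over Mir222 is 33.7 in replicate 1 and 16.8 in replicate 2, and Mir126a over Mir221 is 48.9 in replicate 1 and 64.8 in replicate 2, and in neither panel do the bars overlap.

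Reads at the miR-126 locus came from the strand of Mir126a. The tables count each gene in 3 ways, without regard to strand, on its own strand and on the opposite strand. On its own strand Mir126a had 201306 reads in replicate 1 and 116231 in replicate 2, and on the opposite strand 1 read in each, so that 99.9995% (99.9972 to 100) and 99.9991% (99.9952 to 100) of reads lay on its strand. Mir126b mirrored this, with 1 read in each library on its own strand and 201293 and 116216 on the opposite strand. The single opposite-strand read of Mir126a and the single sense read of Mir126b lie on the same strand of the same bases, and the tables do not tell whether 1 read was counted at both genes. Mir221 and Mir222 had 0 opposite-strand reads in both libraries, beside 4114 and 1793 sense reads for Mir221 and 122 and 107 for Mir222.

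The overlap had a large effect on the column that ignores strand. There Mir126a kept 13 reads in replicate 1 and 15 in replicate 2, and Mir126b 0 in both. These 13 and 15 reads equal the difference between the sense count of Mir126a and the opposite-strand count of Mir126b in each library, that is, the reads counted at Mir126a and not at Mir126b. The other reads of the locus, 201294 in replicate 1 and 116217 in replicate 2, correspond to 33.5% (33.4 to 33.6) and 24.7% (24.6 to 24.8) of the reads that the tables hold as ambiguous when strand is ignored, 601257 in replicate 1 and 470280 in replicate 2. Read that way, Mir126a would have stood at 8.82 CPM and place 259 in replicate 1 and at 11.6 CPM and place 253 in replicate 2. Mir221 and Mir222 face no gene on the other strand and had the same counts in both columns.

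**Figure D3:**
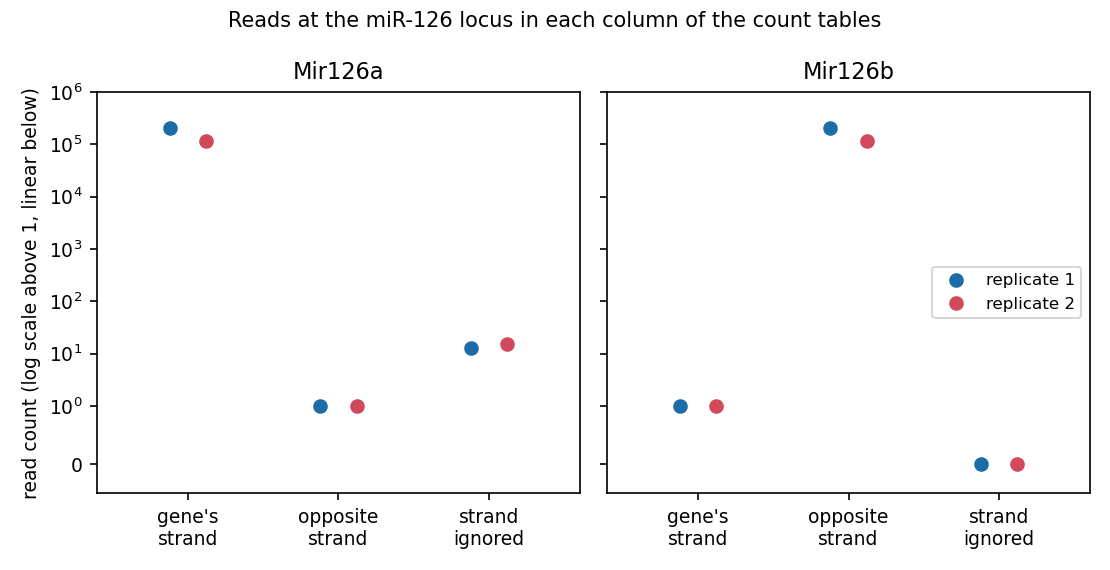
Read counts of Mir126a (left) and Mir126b (right) on the gene's strand, on the opposite strand and with strand ignored, with replicate 1 and replicate 2 as separate points on an axis that is logarithmic above 1 and linear below. Mir126a has 201306 and 116231 reads on its strand and 13 and 15 with strand ignored, and Mir126b has 1 read on its strand in each library and 0 with strand ignored.

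Of the 2202 genes, 64 faced, that is overlapped, a miRNA gene of the other strand. By mean CPM, Mir126a was the second of these after Mir378a and ahead of Mir451a, Mir191, Mir30e and Mirlet7e. Among genes that face no other, 99.9961% of reads in replicate 1 and 99.9955% in replicate 2 had the strand of their gene.

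Between the hearts, Mir126a and Mir221 were higher in replicate 1 and Mir222 was not separated. Library sizes were scaled with TMM factors (trimmed mean of M values). A gene entered the comparison at 10 counts summed over the hearts, and a two-sided exact binomial test asked whether its reads divided between them as the scaled sizes do. P-values of all 359 tested genes were adjusted together after Benjamini and Hochberg. Mir126a was 1.66-fold higher (1.65 to 1.67) in replicate 1, a log2 ratio of 0.73 with an adjusted p too small for the number format. Mir221 was 2.20-fold higher (2.08 to 2.32) in replicate 1, with a log2 ratio of 1.13 (adjusted p = 5.13e-183, exact binomial test). Mir222 had a log2 ratio of 0.13 and a ratio of 1.09 (0.835 to 1.43), with an adjusted p = 0.703 in the same exact test. Mir126b, with 2 reads in all, was not tested. There are 2 libraries and no replicate of the difference.

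Differences of this kind were common. Of the 3 tested members 2 passed the threshold, against 44.3% of all 359 tested genes. Both were higher in replicate 1, as were 24.2% of tested genes (87 genes, against 72 higher in replicate 2). Mir221 was the member called at 2-fold or more in that direction, as were 7.52% of tested genes. With library size alone as the scaling, which shifts every log2 ratio by 0.17, 67 genes were higher in replicate 1 and 103 in replicate 2, while Mir126a (log2 ratio 0.56) and Mir221 (0.97) kept their direction and their call.

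The members' ratios can be set beside those of genes at the same level. Of the 70 tested genes that averaged at least 1000 CPM, 90.0% passed the threshold, and the SD of their log2 ratios was 0.68. The ratio of Mir126a was a little larger than that SD: of the 69 other genes, 16 had a larger ratio in either direction and 10 a larger one towards replicate 1. For Mir221, 4 of 69 had a larger ratio, and all 4 towards replicate 1. Among the 124 tested genes from 10 to 100 CPM, the SD was 1.38, and 100 of the 123 others differed by more than Mir222. The biological coefficient of variation between the 2 libraries was 40.8% by edgeR's common dispersion over 374 genes.

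**Figure D4:**
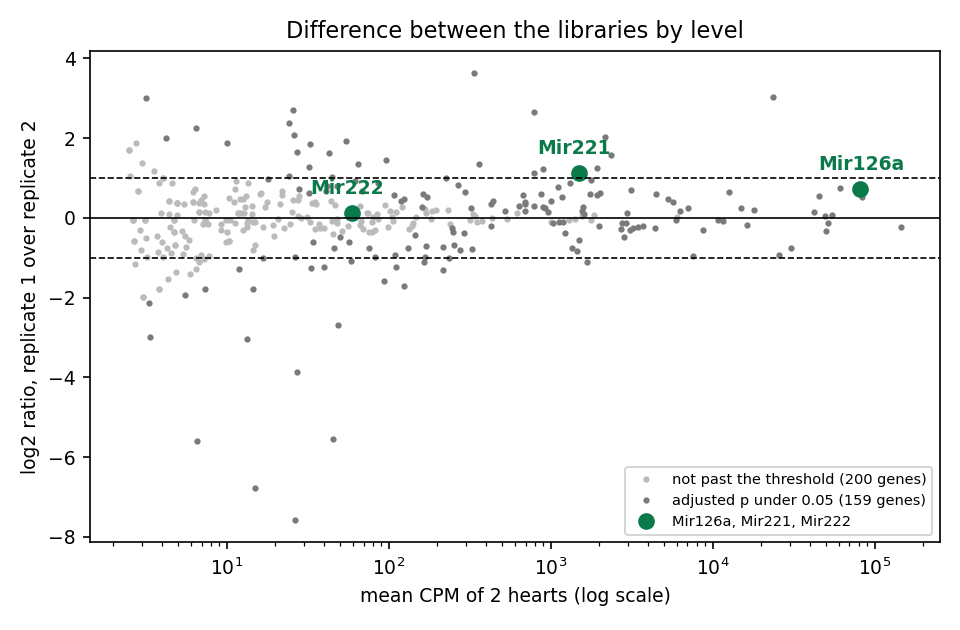
Log2 ratio of replicate 1 over replicate 2 (TMM scaling) against mean CPM on a log axis for the 359 tested genes, with dashed lines at 2-fold and genes with an adjusted p under 0.05 in dark grey. Mir126a (0.73) and Mir221 (1.13) lie above the line of no difference and Mir222 (0.13) lies next to it.

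Genes whose ratio was most like that of a member were sought among genes with 50 or more counts, by the absolute difference of log2 ratios. With 2 libraries a gene's pattern is this 1 ratio, so many genes fall close together. Nearest to Mir126a were Mir7j (log2 ratio 0.72, 33.3 and 22.6 CPM) and Mirlet7g (0.75, 73776 and 49444 CPM), with 12 of 245 genes within 0.1. Nearest to Mir221 were Mir98 (1.13, 2029 and 1045 CPM) and Mir10b (1.13, 1037 and 534.5 CPM), with 4 of 245 genes within 0.1. Mir98, a let-7 family gene also on the X chromosome, stood next to Mir221 in level as well. Nearest to Mir222 were Mir215 (0.13, 73.7 and 75.9 CPM) and Mir671 (0.12, 168 and 174 CPM), with 34 of 245 within 0.1.

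A list of 31 other miRNA genes studied in vessel growth went both ways between the hearts. Of these, 28 reached 2 CPM in each heart and were called detected, 14 were higher in replicate 1, 8 higher in replicate 2, and 6 of the 28 did not pass the test. Over all 359 tested genes, 44.3% passed, 87 of them higher in replicate 1 and 72 in replicate 2, and among those that averaged at least 1000 CPM the share was 90.0%. Their median log2 ratio was 0.06, against 0.01 for all tested genes. With library size alone the list held 11 genes higher in replicate 1 and 13 in replicate 2. Its sum was 144796 CPM in replicate 1 and 152847 CPM in replicate 2, so the sum did not run the same way as Mir126a. Much of that sum came from Mir23b and Mir23a. Single genes of the list, Mir34a and Mir15a among them, exceeded the ratio of Mir126a.

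The most abundant of that list belong to clusters that endothelial and muscle cells both express. In replicate 1 Mir23b had 52615 CPM, beside 56762 CPM in replicate 2. Mir23a had 47760 CPM in replicate 1, beside 51598 CPM in replicate 2. Both passed the test as higher in replicate 1 with TMM (log2 ratio 0.06 each) and are 2 of the 14, but their CPM, scaled by library size alone, are higher in replicate 2. Mir100, whose miRNA targets the kinase Mtor, had 7349 CPM in replicate 1, against 10131 CPM in replicate 2, where it was 1.23-fold higher (1.20 to 1.25). Mirlet7f-2, whose mature miRNA has a second gene copy and whose count is uncertain for reads that map to both, had 5742 CPM and 6400 CPM and did not pass the test (exact binomial test, adjusted p = 0.658).

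Among the tested genes of the list, the largest ratios towards replicate 1 were those of Mir34a and Mir15a. Mir34a, a target gene of p53, had 5457 counts in replicate 1 and 2193 in replicate 2 and was 2.38-fold higher (2.27 to 2.50). Mir15a, whose miRNA represses Bcl2, had 2508 counts in replicate 1 and 1020 in replicate 2 and was 2.35-fold higher (2.19 to 2.53). Both exceeded the ratio of Mir221. Towards replicate 2 they were Mir218-2, in an intron of a Slit guidance gene and likewise with a second copy, with 6 counts in replicate 1 and 21 in replicate 2 (3.66-fold, 1.43 to 11.1), and Mir101a with 105 and 200 counts (1.99-fold, 1.56 to 2.54).

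Markers of other cells in the heart moved between the libraries too, as many genes did. The background for each count of calls in these lists is the share over all 359 tested genes. That share was 44.3%, with 24.2% higher in replicate 1. It was 90.0% among genes that averaged at least 1000 CPM and 33.1% among those from 10 to 100 CPM. In bulk tissue, fewer cells of a type and less RNA per cell cannot be told apart. All 3 erythroid genes were detected, and their summed level was 45889 CPM in replicate 1 and 7589 CPM in replicate 2, with 3 of 3 higher in replicate 1. Mir451a, a miRNA of red blood cells, led them with 41391 CPM in replicate 1 and 5739 CPM in replicate 2 (8.11-fold, 7.95 to 8.28). With the erythroid genes left out of the library sizes and no TMM factors, the log2 ratio was 0.62 for Mir126a and 1.02 for Mir221. Both were still past the threshold. The like values, with library size alone and the erythroid genes kept in, were 0.56 for Mir126a and 0.97 for Mir221. Whether blood cells in the tissue contribute to the counts of the members was not tested.

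Of the cardiomyocyte genes, 5 of 7 were detected, with a sum of 6210 CPM in replicate 1 and 8745 CPM in replicate 2. Of these genes 1 was higher in replicate 1, Mir1a-2 (1.75-fold, 121 and 66 counts), and 2 in replicate 2, Mir208a and Mir499. Mir208a, in an intron of Myh6, led the list and was 1.18-fold higher (1.15 to 1.22) in replicate 2, and Mir499 was 1.40-fold higher (1.34 to 1.45) there. Mir1a-1, Mir1a-2, Mir133a-1 and Mir133a-2 share mature miRNAs between gene copies, and reads that map to several places are counted nowhere, so their counts are uncertain. Both smooth muscle genes were detected, and their sum was 43118 CPM in replicate 1 and 44232 CPM in replicate 2, mostly from Mir143 with 41989 CPM and 42366 CPM. Mir143 was called higher in replicate 1 with TMM (1.11-fold), a sign that turns with library size alone, and Mir145a was 1.47-fold higher (1.39 to 1.55) in replicate 2. The sum of the 4 members was 99059 CPM in replicate 1 and 66887 CPM in replicate 2.

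Of the leukocyte genes, 4 of 4 were detected, with 4121 CPM in replicate 1 and 5447 CPM in replicate 2, 1 higher in replicate 1 and 3 in replicate 2. Mir155 led them with 2615 CPM in replicate 1 and 3190 CPM in replicate 2, where it was 1.08-fold higher (1.04 to 1.13). The gene higher in replicate 1 was Mir142, with 1037 counts in replicate 1 and 387 in replicate 2 (2.57-fold, 2.28 to 2.89). Of the fibroblast genes, 3 of 4 were detected and Mir199a-1 was at 0 in both libraries. Their sum was 964 CPM in replicate 1 and 1790 CPM in replicate 2, with 1 gene higher in each heart. Mir199b was 2.11-fold higher (1.35 to 3.36) in replicate 1, with 66 counts in replicate 1 and 30 in replicate 2, and Mir214, the most abundant, was 1.69-fold higher (1.60 to 1.79) in replicate 2. All 7 epithelial genes were detected, at 351 CPM in replicate 1 and 714 CPM in replicate 2 in sum, with 0 higher in replicate 1 and 4 in replicate 2. Mir200c led them in level with 224 CPM in replicate 1 and 431 CPM in replicate 2. Mir205 had the largest epithelial ratio, with 6 counts in replicate 1 and 91 in replicate 2 (15.8-fold higher in replicate 2). Mir200b had 24 counts in replicate 1 and 151 in replicate 2 (6.57-fold higher in replicate 2). The part of these cell types in the members' ratios was not tested.

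**Figure D5:**
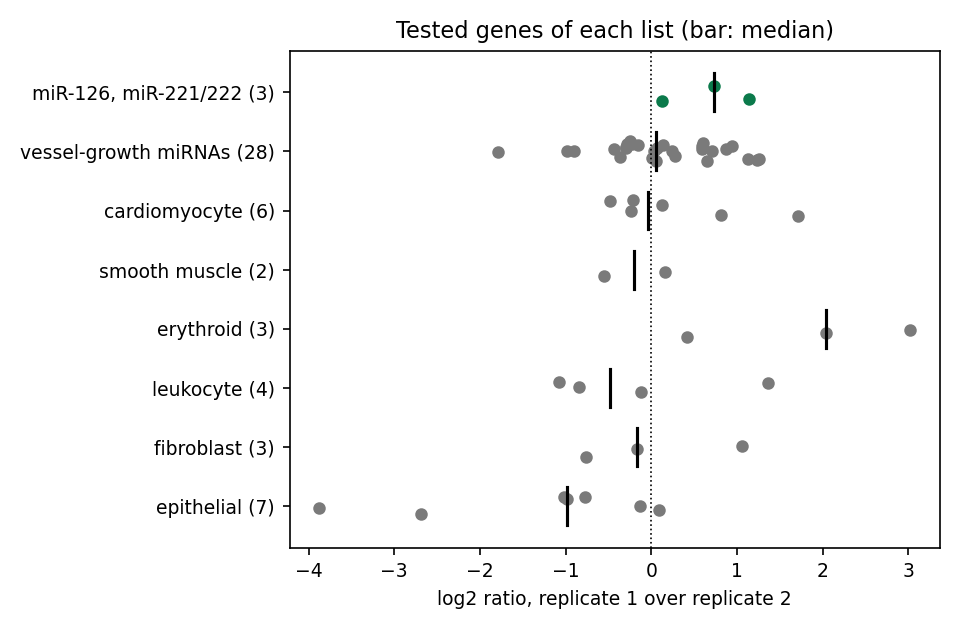
Log2 ratio of replicate 1 over replicate 2 (TMM scaling) for each tested gene of each list, with the number of tested genes in brackets and the median as a bar. The 3 tested members lie at 0.13, 0.73 and 1.13, the vessel-growth genes spread to both sides around a median of 0.06, and of the 8 lists the erythroid one has the median furthest towards replicate 1, at 2.04.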

How the data were processed

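Small RNA libraries of 2 hearts were analysed. The deposited values are unnormalized counts of reads at each miRNA gene of GENCODE M21 on mm10, per the submitters' processing notes, in 3 columns (strand ignored, gene's strand, opposite strand), with 4 rows that name no gene. Those rows held 63.0% of reads in replicate 1 and 64.6% in replicate 2 and were left out of library sizes. Which aligner and counter were run is not given in the sources used here. All 2202 gene IDs matched GENCODE M21.

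The members and gene lists were chosen with earlier results of these data known. CPM used sense counts. The quasi-likelihood test of edgeR could not be fitted, as 1 group of 2 libraries leaves no comparison between groups. A per-gene exact binomial test with TMM sizes (edgeR 4.0.16, prior count 0.5, threshold 0.05) was used across all genes. DESeq2 1.42.0 size factors were an alternative. A chi-square test over 359 genes gave 150266 with 358 degrees of freedom, so the files are not 1 library deposited as 2. The test was run on simulated counts that held counting error alone, which is the error it assumes. Such a run cannot show how the test behaves with spread between hearts. Hairpins were folded with RNAfold 2.7.2. All 4 hairpins matched between RefSeq and GENCODE.

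Besides the 4 members, the rule for naming genes covered the 2 genes above and the 2 below each detected member in mean CPM, the 2 with the nearest log2 ratio, seed partners and neighbours, the 4 highest vessel-growth genes and the 2 with the largest ratio in each direction, and the highest gene of each marker list. Mir145a, Mir150, Mir223 and Mir98 entered by level. Facing genes and further members of the marker lists are named in addition, chosen after their values were seen.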

Additional observations from a re-analysis of the deposited data

How the results depend on the processing

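The ratios of Mir126a and Mir221 between the hearts kept their direction and their call under each of the 9 alternatives, with log2 ratios from 0.56 to 0.79 for Mir126a and 0.97 to 1.20 for Mir221. That of Mir222 was -0.04 (-0.0430) with library size alone and between 0.01 and 0.19 under the other 8, and it was called under none of the 9 (adjusted p from 0.529 to 1, exact binomial test). Between 150 and 170 genes differed. Filters of 1 count and of 50 counts and a prior count of 5 kept the members' reads and scaling, so they could hardly change their results. Apart from thinning the deeper library, the other alternatives changed the scaling alone, which shifts all log2 ratios by about the same amount. The number of vessel-growth genes higher in replicate 2 was 13 with library size alone, with all reads as library size and with the erythroid genes left out of it. A median-ratio scaling over genes with 10 or more counts was added after seeing the data, since DESeq2 gave both libraries a size factor of 1.

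Levels depend on the denominator. Per all reads, Mir126a stood at 29597, Mir221 at 547, and Mir222 at 21.6 CPM. With strand ignored, Mir126a stood at 10.2 CPM, as the reads it shares with Mir126b become ambiguous, and Mir222 at 82.7 CPM, as ambiguous reads leave the library size. Mir222 stood at 61.3 CPM without the erythroid genes in the library size. For Mir126b the means of 0.189 CPM per all reads, 0 with strand ignored and 0.283 with the deeper library thinned rest on at most 1 read in a library, are under the floor of 3 counts and are no levels. Of the values under alternatives, 61 stayed within 1 SD between the hearts (levels and ratios), on the same side of the threshold (tests) or within 1.5 times (counts), 10 did not and 1 changed sign. Leaving out 1 of 2 hearts gives the value of the other, which always lies within 1 SD of their mean. No paired analysis was possible because the series has 1 group. Depth limits Mir126b, with 1 read in each library.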
